A study of Mus musculus with 24 samples.

Results

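A group of 10 genes around the calcium-activated phosphatase calcineurin was followed in mouse hearts in which CELF-mediated splicing is repressed: Rcan1, Rcan2, Ppp3ca, Ppp3cb, Ppp3r1, Nfatc1, Nfatc3, Ppp1r1a, Ppp1r2 and Camk2d. They were chosen by name, with earlier results of these data known, and read through every array probe annotated to those symbols. They make up 10 of the 12011 genes that had a detected probe. The array carried 37 probes for them, of which 26 were detected on at least 3 of the 24 arrays. The brightest detected probe stood for each gene, and that probe was detected on all 24 arrays for all 10 genes. The main result concerns a pair of inhibitors. Transcripts of Rcan1, a calcineurin inhibitor, and of Ppp1r1a, an inhibitor of protein phosphatase 1, rose in both transgenic lines at 3 weeks and in the severe line at 24 weeks, and at 24 weeks neither gene passed the test in the mild line. The call of Rcan1 in the mild line at 3 weeks was lost in 6 of the 7 fits that left out 1 array. Transcripts of the calcineurin subunits Ppp3ca, Ppp3cb and Ppp3r1, of Nfatc1 and Nfatc3, and of Rcan2, Ppp1r2 and Camk2d passed the test in none of the comparisons.

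Whole hearts of female FVB/N mice were assayed one by one on 24 Illumina bead arrays. In the MHC-CELFΔ lines, a nuclear dominant negative CELF protein is made from the α-myosin heavy chain promoter, which is active in postnatal heart muscle, and both lines were kept hemizygous. The high-expressing line MHC-CELFΔ-10 is termed severe here and the low-expressing line MHC-CELFΔ-574 mild. Hearts at 3 weeks of age came from 4 wild type mice, 3 mice of the mild and 3 of the severe line, and those at 24 weeks from 4, 5 and 5 mice. The wild type mice were littermates, 2 from each line at each age, and carried no transgene. Each transgenic line is a single line, so that an effect of where its transgene lies in the genome cannot be told apart from an effect of the protein it makes. The tissue is whole heart, so fewer cells of a type and less RNA per cell cannot be told apart.

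Calcineurin is activated when calcium-bound calmodulin docks on its catalytic subunit (Ppp3ca or Ppp3cb), which works together with a regulatory subunit that itself binds calcium (Ppp3r1). The active enzyme dephosphorylates NFAT factors such as Nfatc1 and Nfatc3, which then enter the nucleus, and in heart muscle this route is known for driving hypertrophic growth. RCAN proteins bind and restrain calcineurin, and one of the transcripts of Rcan1 is itself started by NFAT, which makes Rcan1 a widely used readout of the pathway. Inhibitor-1 (Ppp1r1a) and inhibitor-2 (Ppp1r2) restrain protein phosphatase 1, which opposes protein kinase A at phospholamban and other calcium cycling proteins. Calcineurin can switch inhibitor-1 off, and Camk2d, the main calmodulin-dependent kinase of heart muscle, acts on several of the same proteins.

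The probes read short stretches of the transcripts, and the 2 genes that changed were read by few of them. Ppp1r1a had 1 probe and Rcan1 had 3, of which 2 were detected often enough to be tested. The first 30 of the 50 bases of these probes, decoded from the probe identifiers of the array, are shown because the results on both genes rest on them.
Rcan1 brightest probe: gccgccggcccagtgtttctagttctgcac
Rcan1 second probe: gagagcgagtcgttcgttaagcgtctgccc
Rcan1 remaining probe, not tested: gagaggtggcggaggcggtcgaggcacggg
Ppp1r1a probe: ggtatccggggatcaccactgcagtgtgga
The longest run of bases that the first and second probe of Rcan1 have in common is 5, so they read different places. Which of the transcripts of Rcan1 each probe reads cannot be told from the files.

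RefSeq gives Rcan1 2 start sites on the minus strand of chromosome 16. The 250 bases before each start are shown from the GRCm38.p6 table of RefSeq, because an internal promoter of this gene is known to be used by NFAT. Capitals mark the NFAT core GGAAA or its reverse complement TTTCC.
Rcan1 upstream start, chr16:92466170-92466419, minus strand: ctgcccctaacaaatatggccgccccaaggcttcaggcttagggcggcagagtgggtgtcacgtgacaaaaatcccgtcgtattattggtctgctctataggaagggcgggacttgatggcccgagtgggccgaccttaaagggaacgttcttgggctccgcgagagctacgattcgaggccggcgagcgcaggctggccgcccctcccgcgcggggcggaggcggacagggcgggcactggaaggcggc
Rcan1 downstream start, chr16:92400079-92400328, minus strand: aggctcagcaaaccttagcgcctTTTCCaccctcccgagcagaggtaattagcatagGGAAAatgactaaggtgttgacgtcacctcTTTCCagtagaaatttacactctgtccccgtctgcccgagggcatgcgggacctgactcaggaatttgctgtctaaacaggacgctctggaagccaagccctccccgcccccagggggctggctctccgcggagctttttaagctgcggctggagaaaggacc
In the full RefSeq windows of 300 bases, which run 50 bases past the start, the downstream site holds 3 NFAT cores, 1 AP-1 motif TGACTCA and 1 cAMP response element TGACGTCA, on either strand and with no base shared between motifs. The upstream site holds none of these. An NFAT core is common, since 61.3% of the 32851 windows in the table hold at least 1, whereas 9.42% hold at least 3. The AP-1 motif occurs in 5.20% of the windows and the cAMP response element in 1.79%. Neither window holds a CArG box, the motif of SRF, which 1.63% of windows hold. These matches describe the letters and do not show that a factor bound.

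Every value that follows is a log2 quantile-normalised intensity unless said otherwise, and a difference of 1 is a doubling. The mild and the severe line were set against the same wild type hearts at each age, so their differences are not independent. A gene was called changed at an adjusted p under 0.05 (Benjamini-Hochberg over the 12011 genes). The median difference over all genes lay between -0.01 and 0.01 in all 9 comparisons. The 24 arrays fell into a set of 12 with a lowest raw intensity of 54.2 to 62.8 and a set of 12 with 38.9 to 47.2, each holding arrays of all 6 groups. At 3 weeks the wild type arrays of the higher set were littermates of the severe line and those of the lower set littermates of the mild line, and at 24 weeks the reverse. Differences within a set therefore also change which littermates serve as controls, and set and littermate line cannot be told apart among the wild type arrays. Of the 24 arrays, that of severe line replicate 5 at 24 weeks stood apart in several of the 10 genes. Differences of the brightest probes that rest on it are given with and without it. Cardiomyocyte markers were high on every array, with a mean level of 13.29 to 13.93 over the 7 markers tested, and none of the 7 changed in either line at either age.

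Rcan1 rose in the severe line at both ages and in the mild line at 3 weeks. In wild type hearts at 3 weeks the level of Rcan1 was 10.71, 10.75, 10.59 and 10.56. In the mild line it was 11.42, 11.03 and 12.02 and in the severe line 12.54, 12.09 and 12.44. All 3 mild hearts lay above all wild type hearts, all 3 severe hearts lay above all mild hearts, and the spread within the mild line was the widest of the 3 groups. Groups without overlap were common at these sample sizes: of all genes, 14.7% were separated in the mild line and 17.3% in the severe line from wild type, and 13.3% between the lines. The difference from wild type was 1.70 in the severe line (SE 0.22, a 3.25-fold level, adjusted p = 3.55e-05) and 0.84 in the mild line (SE 0.22, 1.79-fold, adjusted p = 0.0403). Ppp1r1a was called in both lines as well, so 2 of the 10 genes were called in each line, where 2.33% of all genes were called in the mild and 4.62% in the severe line at 3 weeks. As the 10 genes were chosen with earlier results of these data known, this count is a description.

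The call of Rcan1 in the mild line at 3 weeks was a narrow one. Without any one of the 4 wild type arrays the difference was 0.80 to 0.87 and the adjusted p 0.0672 to 0.0998. Without mild line replicate 1 it was 0.87 (adjusted p = 0.102) and without mild line replicate 3, the highest of the 3, it was 0.57 (adjusted p = 0.341). Leaving out mild line replicate 2 kept the call. Within the 12 arrays of the higher background the difference was 0.49 (adjusted p = 0.465) and within the 12 of the lower background 1.45 (adjusted p = 0.230), the latter with a single mild line array. The same fits gave 1.58 (adjusted p = 0.00947) and 1.86 (adjusted p = 0.0661) in the severe line, which also had 1 array in the lower set.

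At 24 weeks the order of the 3 groups was the same, but the mild line no longer stood clear of wild type. Levels of Rcan1 were 10.44, 11.08, 10.72 and 10.83 in wild type, 11.03, 11.04, 11.03, 11.32 and 11.61 in the mild line, and 12.27, 11.81, 12.43, 12.20 and 11.47 in the severe line. The severe hearts all lay above the wild type hearts, while the severe heart with the lowest level, replicate 5, lay below the highest mild heart. Of all genes, 11.5% were separated between severe and wild type hearts at 24 weeks. The difference from wild type was 1.27 in the severe line (SE 0.19, 2.41-fold, adjusted p = 4.67e-05) and 1.41 without replicate 5 (adjusted p = 4.26e-06). It was 1.28 within the higher (adjusted p = 0.00458) and 1.26 within the lower background set (adjusted p = 0.0316). Rcan1 in the mild line differed from wild type by 0.44 with a 95% interval of 0.04 to 0.83 (adjusted p = 0.518), and 3 of the 5 mild hearts lay below the highest wild type heart. Of all genes, 0.966% were called in the mild line at 24 weeks and 15.6% in the severe line. None of the 10 genes was called in the mild line by limma, although 943 of the 12011 genes had an unadjusted p under 0.05 there, and of the 10 Rcan1 and Ppp1r1a did.

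**Figure D1:**
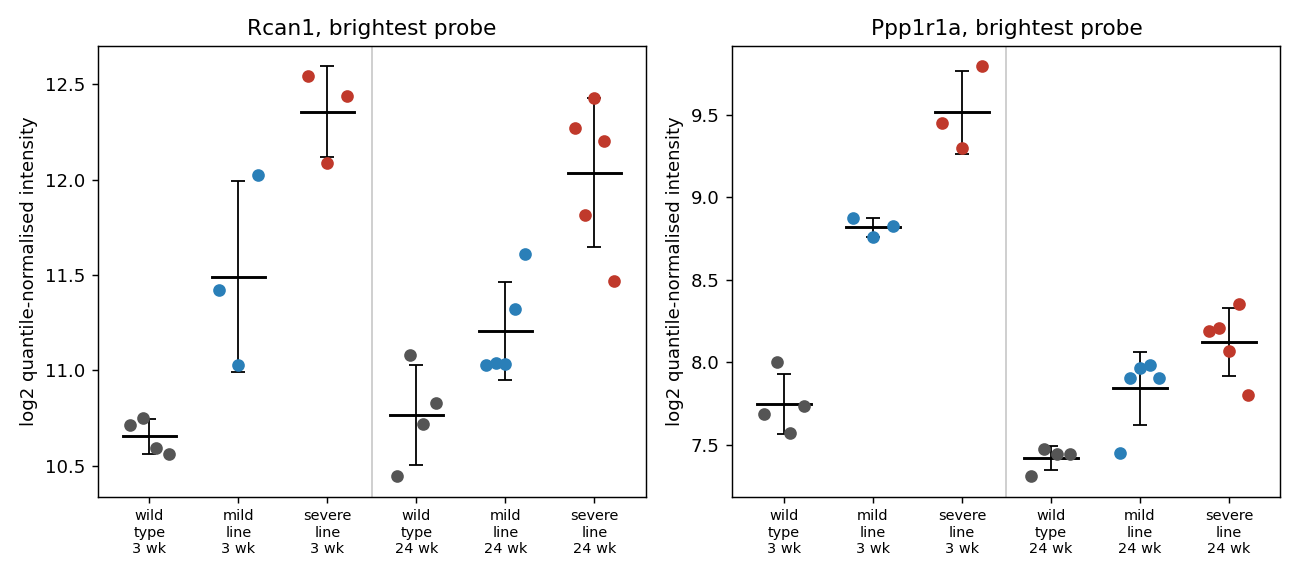
Level of Rcan1 (left) and Ppp1r1a (right) on each array, as log2 quantile-normalised intensity, by group and age. Each point is 1 heart, horizontal bars are group means and error bars are SDs (n = 3 to 5); at 3 weeks the groups of both genes do not overlap, while at 24 weeks mild line and wild type hearts overlap.

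Compared with each other, the lines differed in Rcan1 at 24 weeks. Rcan1 was higher in the severe than in the mild line by 0.83 (SE 0.18, adjusted p = 0.00326), in a comparison in which 11.3% of all genes were called and Rcan1 was the 1 gene of the 10. Without severe line replicate 5 the difference was 0.97 (adjusted p = 3.90e-04), and it was 1.01 within the higher (adjusted p = 0.0440) and 0.71 within the lower background set (adjusted p = 0.182). At 3 weeks the difference between the lines was as large, 0.87 with a 95% interval of 0.38 to 1.35, but did not pass the test (adjusted p = 0.114). Without mild line replicate 3 it was 1.13 and passed (adjusted p = 0.0322). In wild type hearts Rcan1 differed by 0.11 between 24 and 3 weeks (95% interval -0.30 to 0.53, adjusted p = 0.905). The change of its excess over wild type with age was -0.40 in the mild line (SE 0.29) and -0.43 in the severe line (SE 0.29), and neither passed (adjusted p = 1.00 and 0.839). Ordered by their means, the groups ran from wild type at 3 weeks (10.65 ± 0.09, SD, n = 4) and 24 weeks (10.77 ± 0.26, n = 4) through the mild line at 24 weeks (11.20 ± 0.26, n = 5) and 3 weeks (11.49 ± 0.50, n = 3) to the severe line at 24 weeks (12.04 ± 0.39, n = 5) and 3 weeks (12.35 ± 0.24, n = 3). Each group in this order overlapped with the next in its single values.

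The second probe of Rcan1 lay near background and gave a similar picture in the severe line. It was detected on 0 of 4 wild type arrays at 3 weeks, on all 3 mild and all 3 severe arrays, and at 24 weeks on 2 of 4 wild type, 4 of 5 mild and 5 of 5 severe arrays. At 3 weeks its levels were 6.68, 6.64, 6.57 and 6.63 in wild type, 7.13, 6.90 and 7.80 in the mild line and 8.89, 7.54 and 7.46 in the severe line. The wild type values are background values and give only a bound. Counted from the lowest detected value of each wild type array, the mean signal of the second probe was at least 1.49-fold higher in mild hearts. In severe hearts it was at least 2.39-fold higher. These bounds allow for the detection floor only and not for the spread between hearts. In the fit over the 18907 detected probes these differences had an adjusted p of 0.652 in the mild and 0.0529 in the severe line.

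At 24 weeks the second probe read 6.49, 7.98, 6.71 and 6.92 in wild type, 7.56, 7.10, 6.70, 7.31 and 7.47 in the mild line, and 7.66, 7.92, 8.35, 7.82 and 9.39 in the severe line. Wild type replicate 2 lay among the severe hearts. Severe line replicate 5 was the highest on this probe although it was the lowest of the severe hearts on the brightest probe. The difference from wild type in the severe line at 24 weeks was 1.20 (SE 0.33, adjusted p = 0.0181), and in the mild line 0.20 (SE 0.33, adjusted p = 0.992). The fit on single probes was not repeated without severe line replicate 5, which read 9.39 against 7.66 to 8.35 in the other severe hearts. How far the difference of 1.20 rests on that heart was therefore not tested. The remaining probe of Rcan1 was at background in every group, detected on 2 of the 24 arrays, and was not tested.

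**Figure D2:**
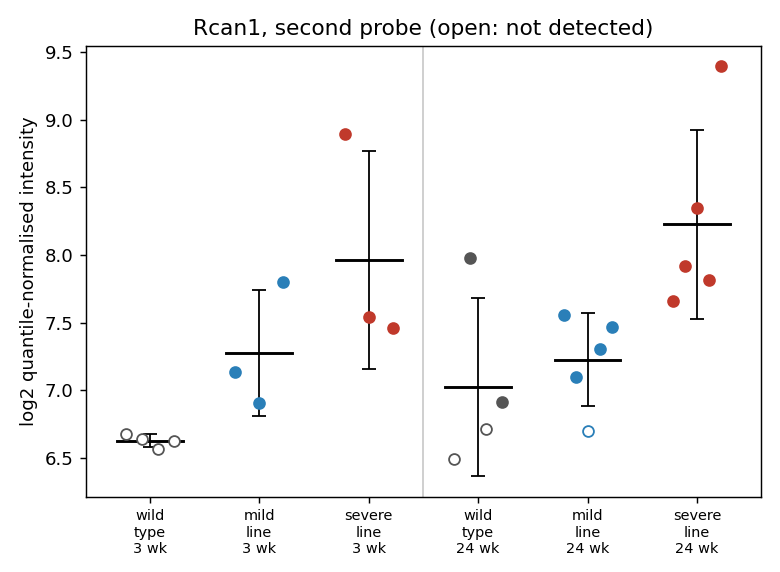
Level of the second Rcan1 probe on each array, as log2 quantile-normalised intensity, by group and age; bars are means, error bars SDs (n = 3 to 5), and open points are arrays on which the probe was not detected. All 4 wild type arrays at 3 weeks are open, and the highest point is severe line replicate 5 at 24 weeks (9.39).

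Ppp1r1a, inhibitor-1 of protein phosphatase 1, was the other gene that rose. At 3 weeks its level was 7.69, 8.00, 7.57 and 7.74 in wild type, 8.87, 8.76 and 8.83 in the mild line, and 9.45, 9.30 and 9.79 in the severe line. The 3 groups did not overlap. From wild type, 14.7% of all genes were separated in the mild and 17.3% in the severe line. The mild hearts lay within a span narrower than that of the wild type hearts. Ppp1r1a was thus 2.10-fold higher in the mild line (1.07, SE 0.14, adjusted p = 3.16e-05) and 3.40-fold higher in the severe line (1.77, SE 0.14, adjusted p = 1.93e-08). Within the higher and the lower background set the mild line difference was 0.97 (adjusted p = 0.0101) and 1.17 (adjusted p = 0.0556), and that of the severe line 1.53 (adjusted p = 7.23e-04) and 2.14 (adjusted p = 0.00213). Leaving out any one of the arrays kept both calls.

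At 3 weeks all 3 severe hearts lay above all 3 mild hearts in Ppp1r1a, a separation that 13.3% of all genes showed. The severe line exceeded the mild line in Ppp1r1a by 0.70 (SE 0.15, adjusted p = 0.0230). It was the 1 gene of the 10 called in this comparison, in which 0.574% of all genes were called. The call held without severe line replicate 2 and was lost without any other one of the 6 arrays. The difference was then 0.73 without severe line replicate 1 (adjusted p = 0.0606) and 0.56 without replicate 3 (adjusted p = 0.183), and 0.67 to 0.72 without mild line replicate 1, 2 or 3 (adjusted p = 0.0819 to 0.102). Within the higher background set it was 0.56 (adjusted p = 0.283) and within the lower set, which held 1 array of each line at this age, 0.97 (adjusted p = 0.660).

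Levels of Ppp1r1a were lower at 24 weeks in all 3 groups. Values were 7.31, 7.48, 7.45 and 7.45 in wild type, 7.45, 7.91, 7.97, 7.99 and 7.91 in the mild line, and 8.19, 8.21, 8.07, 8.35 and 7.80 in the severe line. The severe hearts still lay above all wild type hearts, 4 of the 5 mild hearts did so too, and mild line replicate 1 lay within the wild type range. Between severe and wild type hearts of this age 11.5% of all genes were separated. The difference from wild type was 0.70 in the severe line (SE 0.12, 1.63-fold, adjusted p = 1.81e-04), and 0.79 without severe line replicate 5 (adjusted p = 2.71e-05). It was 0.81 within the higher (adjusted p = 0.00786) and 0.63 within the lower background set (adjusted p = 0.0547). For the mild line it was 0.42 with a 95% interval of 0.18 to 0.67 (adjusted p = 0.118). Without mild line replicate 1 it was 0.52 and passed (adjusted p = 0.0183). Between the lines at 24 weeks the difference was 0.28 (95% interval 0.05 to 0.52, adjusted p = 0.116), and 0.36 without severe line replicate 5 (adjusted p = 0.0315).

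In severe hearts the excess of Ppp1r1a over wild type was smaller at 24 weeks than at 3 weeks, by 1.06 (SE 0.18, adjusted p = 0.00300). It was the 1 gene of the 10 called for a change with age in that line, in which 0.683% of all genes were called. Within the background sets the same change was -0.73 (adjusted p = 0.256) and -1.51 (adjusted p = 0.242), and without severe line replicate 5 it was -0.98 (adjusted p = 0.00233). The change with age in the mild line was -0.65 with a 95% interval of -1.02 to -0.27 (adjusted p = 0.562), and 0.0666% of all genes were called there and none of the 10. In wild type hearts Ppp1r1a was lower at 24 weeks in all 4 hearts than in any heart at 3 weeks, a separation that 8.38% of all genes showed, and the difference of -0.33 did not pass (95% interval -0.59 to -0.07, adjusted p = 0.221). None of the 10 genes was called between wild type hearts of the 2 ages, where 2.57% of all genes were called and 1534 genes had an unadjusted p under 0.05.

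Ordered by their means, the levels of Ppp1r1a ran from wild type at 24 weeks (7.42 ± 0.07, SD, n = 4) and 3 weeks (7.75 ± 0.18, n = 4) through the mild line (7.84 ± 0.22, n = 5) and the severe line at 24 weeks (8.12 ± 0.21, n = 5) to the mild line (8.82 ± 0.06, n = 3) and the severe line at 3 weeks (9.51 ± 0.25, n = 3). This order differs from that of Rcan1, in which the means of both severe groups lay above those of both mild groups. Wild type hearts at 3 weeks overlapped with mild hearts at 24 weeks, and mild with severe hearts at 24 weeks, whereas both transgenic groups at 3 weeks lay above all other groups. Over the 24 arrays the levels of Rcan1 and Ppp1r1a had a correlation of 0.73, and 0.45 after the mean of each group was taken off. The arrays share their groups and their scan, so this is a description.

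The calcineurin subunits Ppp3ca, Ppp3cb and Ppp3r1 did not pass the test in any of the 9 comparisons. For Ppp3ca, the α catalytic subunit, levels at 3 weeks were 9.21, 9.53, 9.14 and 9.02 in wild type, 9.25, 9.19 and 9.18 in the mild line and 9.58, 9.58 and 9.49 in the severe line. All 3 severe hearts lay above the mild hearts, a separation that 13.3% of all genes showed. Of the 3, 2 lay above all wild type hearts. The difference from wild type was 0.32 (95% interval 0.05 to 0.60, adjusted p = 0.191), and that from the mild line 0.35 (0.06 to 0.64, adjusted p = 0.579). At 24 weeks the severe line differed from wild type by 0.25 (0.02 to 0.49, adjusted p = 0.160), and by 0.12 without replicate 5, whose level of 9.96 was the highest of all 24 hearts. The other detected probe of Ppp3ca did not pass either.

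Ppp3cb, the β catalytic subunit, was the steadiest of the 10 genes. Its group means lay between 10.44 and 10.47, and its difference from wild type lay between -0.02 and 0.02 in both lines at both ages, with 95% intervals within -0.22 and 0.25. For Ppp3r1, the regulatory subunit, the 3 severe hearts at 3 weeks (9.40, 9.07 and 9.27) lay above the 4 wild type hearts (8.93, 9.01, 9.04 and 8.76). Of all genes, 17.3% were separated in that comparison. The difference was 0.31 (95% interval -0.13 to 0.75, adjusted p = 0.532). At 24 weeks Ppp3r1 stood at 10.10 in severe line replicate 5 and between 8.72 and 8.93 in the other 4 severe hearts, and the difference from wild type turned from 0.13 to -0.12 without that array (adjusted p = 0.747 and 0.510).

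**Figure D3:**
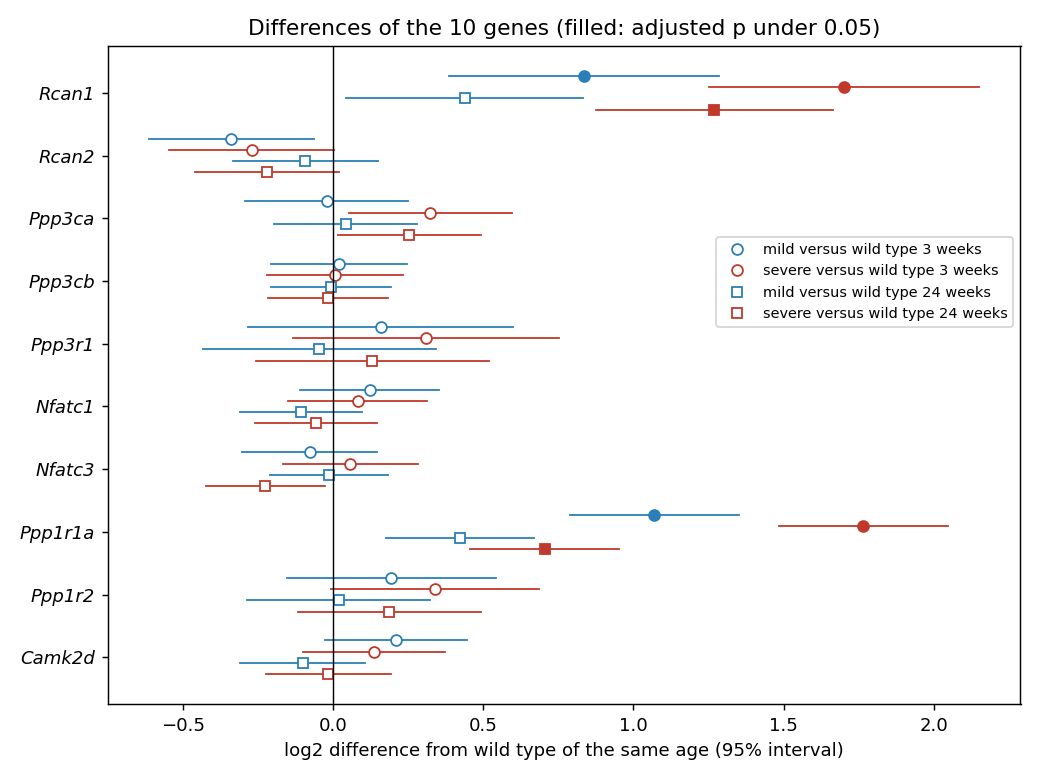
Difference of each of the 10 genes from wild type hearts of the same age, on the log2 scale with its 95% interval, for the mild line (blue) and severe line (red) at 3 weeks (circles) and 24 weeks (squares). Filled symbols passed an adjusted p of 0.05: Rcan1 and Ppp1r1a in both lines at 3 weeks and in the severe line at 24 weeks, while the other 8 genes lie within -0.34 and 0.34.

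Nfatc1 and Nfatc3, NFAT factors on which calcineurin acts, likewise did not pass. Nfatc1 differed from wild type by 0.12 and 0.08 in the mild and severe line at 3 weeks and by -0.11 and -0.06 at 24 weeks, with 95% intervals within -0.31 and 0.35. Nfatc3 was at 9.11, 8.92, 8.98, 9.10 and 8.46 in the severe line at 24 weeks against 9.21, 9.06, 9.09 and 9.19 in wild type. The difference was -0.23 (95% interval -0.42 to -0.03, adjusted p = 0.125), and -0.11 without replicate 5 (adjusted p = 0.308), the lowest of all hearts. Its difference in the other 3 comparisons with wild type lay between -0.08 and 0.06. These values are transcript levels, and the phosphorylation and location of the NFAT proteins were not measured.

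Rcan2, the second RCAN gene on this list, ran the other way from Rcan1 in sign but did not pass. Its level at 3 weeks was 11.75, 11.77, 11.39 and 11.57 in wild type, 11.42, 11.25 and 11.17 in the mild line, and 11.18, 11.52 and 11.34 in the severe line. Wild type replicate 3 lay among the transgenic hearts. The difference was -0.34 in the mild line (95% interval -0.61 to -0.07, adjusted p = 0.261) and -0.27 in the severe line (-0.55 to 0.00, adjusted p = 0.309). At 24 weeks it was -0.09 and -0.22 (adjusted p = 0.979 and 0.244). Over the alternatives that left out no single array, the sign held in the mild line at 3 weeks (-0.42 to -0.20). It did not hold throughout in the severe line at 3 weeks (-0.41 to 0.01) or at 24 weeks in the mild (-0.22 to 0.04) and severe line (-0.43 to 0.06). All 3 probes of Rcan2 were detected on all 24 arrays and none was called in any comparison.

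Ppp1r2, inhibitor-2 of protein phosphatase 1, was at 10.57, 10.69 and 10.58 in the severe line at 3 weeks, above the 4 wild type hearts at 10.43, 10.24, 10.06 and 10.38. Of all genes, 17.3% were separated there. The difference of 0.34 had a 95% interval of -0.01 to 0.69 and did not pass (adjusted p = 0.319), so that the rise of inhibitor-1 at this age had no called counterpart in inhibitor-2. At 24 weeks the difference was 0.19 in the severe line and 0.03 without replicate 5, where Ppp1r2 stood at 11.38 against 10.35 to 10.80 in the other severe hearts. Camk2d was higher in all 3 mild hearts at 3 weeks (7.87, 7.87 and 7.98) than in the 4 wild type hearts (7.75, 7.66, 7.76 and 7.62), and the difference of 0.21 did not pass (95% interval -0.03 to 0.45, adjusted p = 0.539). A separation in this comparison was shown by 14.7% of all genes. Of the 11 probes of Camk2d, 8 were detected, and none of them was called in any comparison.

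**Figure D4:**
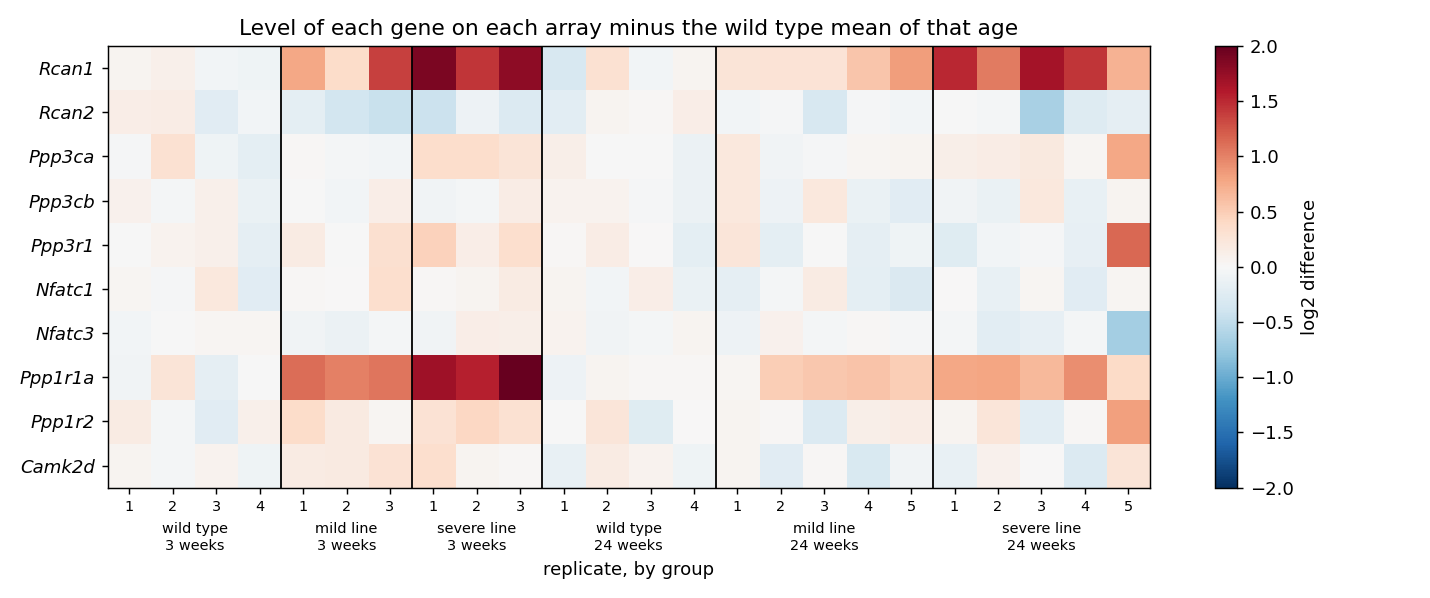
Level of each of the 10 genes on each of the 24 arrays minus the wild type mean of the same age, on the log2 scale (red higher, blue lower), by group and replicate. The rows of Rcan1 and Ppp1r1a are reddest in the transgenic hearts at 3 weeks and the severe hearts at 24 weeks, and severe line replicate 5 at 24 weeks differs from the other severe hearts in Ppp3ca, Ppp3r1, Nfatc3 and Ppp1r2.

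Some other regulators of protein phosphatase 1 passed the test, in both directions. Of 26 tested genes of catalytic and regulatory subunits, 1 rose and 2 fell in the mild line at 3 weeks, 1 rose and 1 fell in the severe line at 3 weeks and in the mild line at 24 weeks, and 2 rose and 4 fell in the severe line at 24 weeks. Of all genes, 2.33%, 4.62%, 0.966% and 15.6% were called in these comparisons, in that order. The medians of the list lay between -0.04 and 0.02, beside -0.003 to 0.006 for all genes. Ppp1r14c differed from wild type by -1.30 in the mild line at 3 weeks (adjusted p = 0.00760), a call lost in 1 of 7 fits that left out 1 array. In the severe line at 24 weeks it differed by -0.73 (adjusted p = 0.0397), a call lost in 6 of 9 such fits. Ppp1r1b, better known as DARPP-32 and the closest relative of inhibitor-1, fell in all 4 comparisons. Its levels at 3 weeks were 7.97, 7.98, 7.88 and 7.38 in wild type, 6.56, 6.47 and 6.56 in the mild line and 7.08, 7.60 and 7.07 in the severe line. It was detected on none of the mild line arrays at 3 weeks, so the bound is at least 2.15-fold lower than wild type (adjusted p = 4.45e-06). In severe hearts of that age it fell by 0.55 (adjusted p = 0.0195), a call that was lost without wild type replicate 1, 2 or 3 or severe line replicate 1 or 3 (-0.46 to -0.53, adjusted p = 0.0539 to 0.166). At 24 weeks Ppp1r1b was detected in 4 of 4 wild type, 1 of 5 mild and 4 of 5 severe hearts, so that the mild line was largely at background and the size of its difference is uncertain. It was called lower in the mild (adjusted p = 1.63e-04) and in the severe line (adjusted p = 3.98e-05), and all 10 transgenic hearts lay below all 4 wild type hearts, where 3.8% of all genes were separated in the mild and 11.5% in the severe line. The difference was -0.85 in the mild line and ran from -1.83 to -0.42 over the alternatives that left out no single array, and that of the severe line was -0.81 and ran from -1.71 to -0.42. Within the higher and the lower background set the mild line call was lost (-0.73, adjusted p = 0.127, and -0.97, adjusted p = 0.0501). At 3 weeks Ppp1r1b was also at least 1.47-fold higher in the severe than in the mild line (adjusted p = 0.0195), and that call was lost without severe line replicate 2 or any one of the 3 mild line arrays (0.55 to 0.74, adjusted p = 0.0671 to 0.0884).

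Markers of atrial muscle also fell in the mild line, where 2.33% of all genes were called at 3 weeks and 0.966% at 24 weeks. There 3 of the 6 atrial markers fell at each age, and the mean level of the list was 10.77 to 11.46 at 3 weeks and 11.39 to 11.68 at 24 weeks, beside 12.16 to 12.43 and 12.26 to 12.39 in wild type. Of the 6, none changed at 3 weeks and 1 fell at 24 weeks in the severe line, with mean levels of 11.70 to 12.58 and 11.71 to 12.15. In the severe line 4.62% of all genes were called at 3 weeks and 15.6% at 24 weeks. All 6 atrial markers had a detected probe. Their part in the fall of Ppp1r1b was not tested.

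Ppp1r3c, a subunit that targets the phosphatase to glycogen, rose in both lines at both ages. At 24 weeks its levels were 12.31, 12.28, 11.96 and 12.19 in wild type, 12.73, 12.64, 12.52, 12.55 and 12.71 in the mild line and 13.08, 12.94, 13.05, 12.97 and 12.72 in the severe line. All transgenic hearts lay above all wild type hearts, where 3.8% of all genes were separated in the mild and 11.5% in the severe line. Ppp1r3c rose by 0.44 in mild (adjusted p = 0.0108) and by 0.77 in severe hearts (adjusted p = 2.88e-06), and at the earlier age by 0.50 (adjusted p = 0.00707) and 0.53 (adjusted p = 0.00366). The mild line calls were lost without mild line replicate 3 at 3 weeks (0.43, adjusted p = 0.0850) and without wild type replicate 3 at 24 weeks (0.37, adjusted p = 0.0797). Ppp1r9b, or spinophilin, a scaffold of the phosphatase, rose by 0.64 in the severe line at 24 weeks (adjusted p = 1.24e-05).

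**Figure D5:**
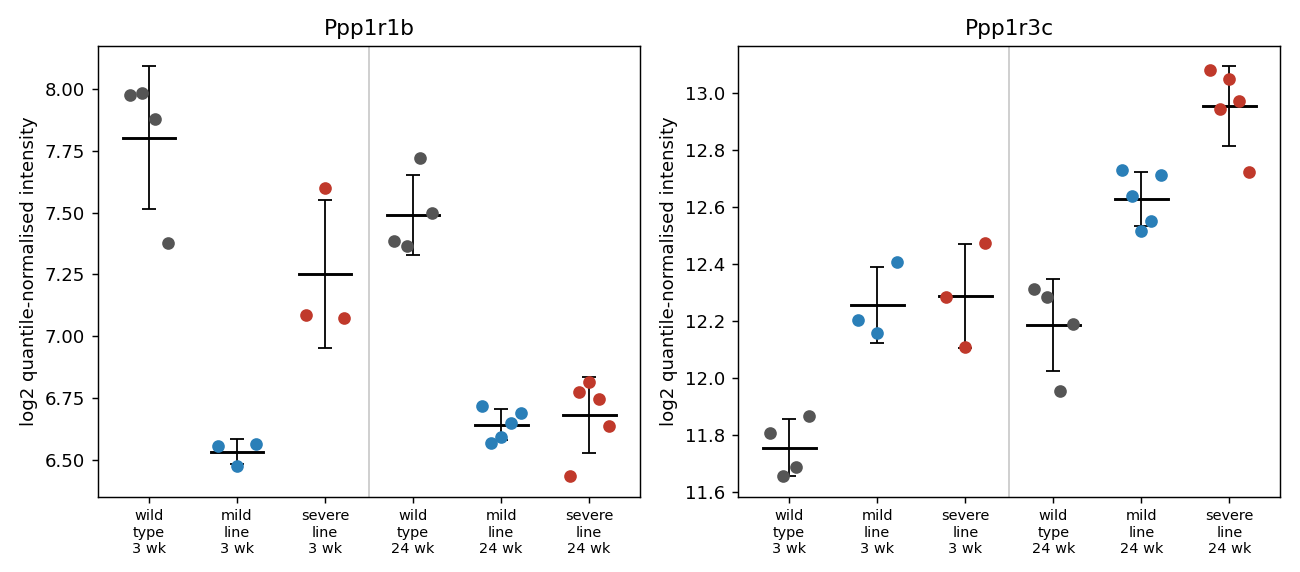
Level of Ppp1r1b (left) and Ppp1r3c (right) on each array, as log2 quantile-normalised intensity, by group and age, with means as bars and SDs as error bars (n = 3 to 5). Ppp1r1b lies lower and Ppp1r3c higher in the transgenic hearts of both ages, with 1 wild type heart at 3 weeks (7.38) inside the range of the severe line for Ppp1r1b.

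Among 15 tested regulators and partners of calcineurin, 1 rose in the mild line at 3 weeks, none changed in the mild line at 24 weeks, 1 fell in severe hearts at 3 weeks, and 3 rose and 1 fell in those at 24 weeks. The shares of all genes called were 2.33%, 0.966%, 4.62% and 15.6%. The medians of this list lay between -0.04 and 0.05. Akap5, an anchoring protein that holds calcineurin and protein kinase A together, fell by 0.65 in the severe line at 3 weeks (adjusted p = 6.18e-04). In severe hearts at 24 weeks Fkbp1a, the FK506-binding protein, rose by 0.40 (adjusted p = 0.00552) and Ppia, or cyclophilin A, by 0.45 (adjusted p = 0.0215), and Ppp3cc, the γ catalytic subunit of calcineurin, fell by 0.32 (adjusted p = 0.0107). Lmcd1, a LIM domain protein that promotes calcineurin signalling in mouse heart, rose by 0.70 there (adjusted p = 0.00708) and by 0.75 in the mild line at 3 weeks (adjusted p = 0.0452). The call of Ppia was lost without wild type replicate 1 or 4 or severe line replicate 3 (0.34 to 0.44, adjusted p = 0.0540 to 0.0762). That of Lmcd1 in the mild line was lost without any one of the 4 wild type arrays or mild line replicate 1 or 3 (0.46 to 0.83, adjusted p = 0.0528 to 0.398).

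Of 14 tested NFAT factors, NFAT kinases and transcription partners, 1 rose in the mild line at 3 weeks, 1 rose and 2 fell in the severe line at 24 weeks and none changed in the other 2 comparisons with wild type, with list medians of -0.05 to 0.04. The NFAT factor Nfatc2 rose by 0.41 in the mild line at 3 weeks (adjusted p = 0.0229), a call lost in 5 of 7 fits that left out 1 array. Another, Nfat5, rose by 0.38 in the severe line at 24 weeks (adjusted p = 0.0343), a call lost in 5 of 9 such fits. Mapk14, the p38α kinase, fell by 0.38 in the severe line at 24 weeks (adjusted p = 0.0111), and that call was lost without wild type replicate 1 (-0.33, adjusted p = 0.0518). Of 19 tested calmodulin and calmodulin kinase genes, 1 rose in the severe line at 3 weeks, 4 rose and 1 fell in the severe line at 24 weeks and none changed in the mild line, with list medians of 0.03 to 0.11. Camk2n2, an inhibitor of calmodulin kinase II, rose by 0.59 in the older severe hearts (adjusted p = 0.00115) and Camk1 by 0.44 (adjusted p = 0.00556). The counts of both lists stand beside the shares of all genes called. At 3 weeks these were 2.33% in the mild and 4.62% in the severe line, and at 24 weeks 0.966% and 15.6%. With the mean of all detected probes in place of the brightest, Camk1 stood at 0.23 (adjusted p = 0.368), Ppp3cc at -0.11 (adjusted p = 0.326) and Ppp1r1b in the severe line at 3 weeks at -0.18 (adjusted p = 0.308), so these calls rest on the brightest probe.

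Non-muscle cell markers also moved in the severe line at 24 weeks. Of all genes, 15.6% were called there. In that comparison 4 of 7 fibroblast, 2 of 4 smooth muscle, 2 of 6 macrophage and 2 of 7 endothelial markers rose. Their mean levels were 9.04 to 9.74, 9.67 to 10.53, 8.73 to 9.26 and 8.54 to 9.12, beside 8.51 to 8.79, 9.41 to 9.73, 8.30 to 8.60 and 8.51 to 8.69 in wild type. Of the markers listed, Cnn1 of smooth muscle and Cd68 of macrophages had no probe that passed the detection filter. At 3 weeks 1 of 7 fibroblast and 1 of 4 smooth muscle markers rose and 1 of 6 macrophage markers fell in the severe line, and none of these changed in the mild line. At that age 4.62% of all genes were called in the severe and 2.33% in the mild line. Few markers of erythroid cells, fat, skeletal muscle and neurons were detected (3 of 5, 2 of 6, 4 of 7 and 2 of 6), and of these 1 neuronal marker fell in the mild line at each age and in severe hearts at 24 weeks, where 1 skeletal muscle marker rose and 1 fell. None of the 3 erythroid markers was called, but their median difference at 3 weeks was 0.88 in the mild and 0.71 in the severe line, with mean levels of 12.08 to 12.44 in mild, 11.25 to 12.99 in severe and 11.44 to 11.65 in wild type hearts. Fibroblast markers at 3 weeks averaged 9.43 to 9.53 in mild and 9.39 to 9.75 in severe hearts, above the 9.11 to 9.26 of wild type hearts. The part of these cells in the levels of Rcan1, Ppp1r1a and the listed genes was not tested.

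The genes whose levels ran most like those of Rcan1 over the 24 arrays were Tnfrsf12a (r = 0.92), the receptor of the cytokine TWEAK, Endod1 (0.91), Synpo (0.91), an actin-associated protein, Slc1a1 (0.90), a glutamate transporter, and Gria3 (0.89), a glutamate receptor subunit. At 3 weeks Tnfrsf12a differed from wild type by 1.14 (mild) and 1.68 (severe), and at 24 weeks by 0.52 and 0.83. The genes most like Ppp1r1a were Mylk2 (0.94), a myosin light chain kinase, Nectin3 (0.91), Flrt1 (0.90), Sh2d2a (0.89) and Map3k7cl (0.88). The differences of Mylk2 from wild type were 1.20 (mild) and 1.64 (severe) at 3 weeks, and 0.48 and 0.44 at 24 weeks. The 2 sets of 5 shared no gene. These genes were picked as the highest correlations among the 12011 genes, so the coefficients are descriptions. Among the 10 genes themselves, the closest pair was Ppp3ca and Ppp3r1 (r = 0.79 over the 24 arrays), both of which were highest in severe line replicate 5.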

How the data were processed

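Total RNA from 24 whole hearts was measured on Illumina MouseWG-6 v2.0 arrays, 1 array per mouse. As deposited, intensity is the raw bead signal of a probe. The authors quantile-normalized these signals and gave them as log2 values, with no background correction evident in them, which compresses the changes of dim genes. A deposited detection p-value compares the probe with negative control beads. For the normalization software: not given in the sources used here. Bead numbers and bead errors (48 columns) stayed unused. All tests ran on the log2 values as deposited. The number of arrays limits the precision.

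The platform annotation pairs 34885 of 45281 probes with a single symbol, 18 with several symbols and 10378 with no symbol. Singly annotated probes were kept when 3 or more arrays had a detection p under 0.05 (18907), and the brightest probe stood for each gene. All 6 groups entered 1 limma fit (3.58.1, R 4.3.3). Adjustment followed Benjamini and Hochberg, over 12011 genes in each of 9 contrasts, or over all kept probes for results on single probes. Bounds use the lowest detected value of each array, 6.62 to 6.82. They are taken between group means and do not allow for the spread between hearts. The fit was tested on simulated arrays. Probe bases were decoded from the probe identifiers, whose checksum was right for all 45281. Promoter windows are those of RefSeq (GRCm38.p6).

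List genes were named from the 4 with the smallest adjusted p among those called per list and comparison, and not all of these were named. For a named gene, calls in other comparisons could be given too. Of the named genes, those described in most detail were picked after their values were seen. The 10 genes and all lists were chosen with earlier results of these data known. The labels name the mice as biological replicates. Alternatives covered the normalization, the probe filter and choice, the samples in the fit, array weights, the wild type littermates of the own line, blocks for array sets and leaving out each array. Figures were drawn with matplotlib.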

Additional observations from a re-analysis of the deposited data

Results flagged for a closer look

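Of 40 sets of values, 1 for each of the 10 genes in each group of 4 or 5 hearts, 6 held a heart far from the others, where chance gives about 1 in 20. Of these, 3 were severe line replicate 5 at 24 weeks: Ppp3ca stood at 9.96 (next highest 9.38), Ppp3r1 at 10.10 (next 8.93) and Nfatc3 at 8.46 (next lowest 8.92). In the mild line at 24 weeks, replicate 3 stood low in Rcan2 (11.28, next 11.53) and in Ppp1r2 (10.28, next 10.59), and replicate 1 in Ppp1r1a (7.45, next 7.91).

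In 3 cases a result differed between groups by a test of the difference itself. Ppp1r1a was higher in the severe than in the mild line at 3 weeks by 0.70 (adjusted p = 0.0230). Rcan1 was higher in the severe than in the mild line at 24 weeks by 0.83 (adjusted p = 0.00326). The difference of Ppp1r1a from wild type in the severe line changed by -1.06 from 3 to 24 weeks (adjusted p = 0.00300).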

How the results depend on the processing

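Counts are of the 10 members called. In the mild line against wild type at 3 weeks the count of 2 members became 1 with raw values scaled to a common median, with no filter on dim probes and with the mean of kept probes. It also became 1 with wild type of the own line, within the higher background set and with a replicate block. Rcan1 was the gene lost in each of these settings. The lower set held 1 mild line array at this age, so no count is given for it here. The count of 0 members in the mild line at 24 weeks became 1 with array weights. In the severe line the count of 2 became 1 within the lower background set at both ages. For severe against mild at 3 weeks the count of 1 became 0 with neqc normalization, with raw values scaled to a common median, with only the groups of the contrast and within either background set, and 2 with array weights. At 24 weeks it became 2 with array weights and 0 within the lower set. For the severe change with age the count of 1 became 0 with raw values scaled to a common median, with wild type of the own line and within either background set. The cause was not tested, except that single background sets and own-line wild types leave fewer arrays.

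Leaving out 1 array at a time gave 1 to 2 members in the mild line at 3 weeks, 0 to 1 at 24 weeks, 2 to 2 at both ages in the severe line, 0 to 1 and 1 to 2 for severe against mild at 3 and 24 weeks, 0 to 0 for the change with age of wild type and for that of mild hearts, and 1 to 1 for that of severe hearts. No called difference of the members changed sign in any of the 2020 values, and of the other 8 members none was called in any of 1616 (lowest adjusted p 0.0542), with 149 changes of sign among uncalled values. The 43 called differences of list genes kept their sign in all 912 values and their call in 648.

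Replicate numbers in the labels did not pair the arrays. Arrays of the same number had a median correlation of 0.06 in their deviations (-0.32 to 0.57, 60 pairs) and arrays of other numbers -0.05 (-0.56 to 0.70, 178 pairs). With a replicate block the count in the mild line at 3 weeks was 1 of the members in place of 2, with Rcan1 at 0.73 (adjusted p = 0.0871), and the other 8 counts were unchanged.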
